A study of Mus musculus with 7 samples.

Results

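The mouse vomeronasal type 2 receptor genes were taken as all genes of the mm9 annotation (GENCODE vM1) whose symbol starts with Vmn2r followed by a number. This takes in Vmn2r68-ps and Vmn2r72-ps and leaves out records in which -ps comes before the number. The rule found 119 genes among 22350 protein-coding genes of the autosomes and X, and all 119 were annotated as protein-coding. Genes under 500 kb apart were joined into a cluster, which gave 19 clusters. Of these, 9 held at least 5 genes and together 97 of the 119, and 5 were single genes. In the CTCF list, 15 of 68667 peaks overlapped a Vmn2r gene extended by 20 kb to each side, and in the Rad21 list 12 of 68656 did, which makes 27 of 137323 peaks.

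The peaks came from ChIP-seq of liver nuclei of female CD-1 mice (the outbred stock Crl:CD1(ICR)), 8 weeks of age, with 4 libraries made with a Millipore antibody to CTCF and 3 made with the Abcam antibody Ab992 to Rad21, a subunit of cohesin. The labels give neither a treatment nor an engineered allele, and all 7 libraries share strain, sex, age and tissue. The study asked how CTCF and cohesin binding differs between male and female liver, and only the female lists are described here. Each list is named as merged over the libraries of its antibody and was taken as called on the pool. Each peak has 1 value per list, so the spread between mice is not known, and no difference below was tested. A CTCF peak that shared at least 1 bp with a Rad21 peak is called a CAC or shared site, other CTCF peaks Lone CTCF, and a Rad21 peak without CTCF a CNC site. The paper uses the same names but sets them by how many single replicates have a peak of the other factor, so the classes differ. No expression was measured, so liver and vomeronasal markers could not be checked.

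Vomeronasal type 2 receptors are class C G protein-coupled receptors with a long extracellular domain. Sensory neurons of the basal layer of the vomeronasal organ express them, where they detect peptide and protein pheromones, and each neuron uses a small choice out of the family. The genes arose by tandem duplication, so neighbours are close copies of each other and transposable elements fill the space between them. CTCF binds a long asymmetric DNA motif through its zinc fingers, and cohesin that extrudes DNA is held at CTCF sites, most often where the motifs at the ends of a loop point towards each other.

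The sequences that carry the result are the CTCF motif matches at these genes, each given with 5 bases to either side (30 bases of mm9), read 5′ to 3′ on the strand of the motif, with the 20 bases of the motif in capitals. The motif matrix was learned from CTCF peaks far from Vmn2r genes, its consensus was TGGCCACCAGGGGGCGCCAG, and a match needed a score of at least 12.99 bits, which 1% of windows beside CTCF peaks reached. The first set is shown because 1 word of 20 bases occurred 6 times among Vmn2r8 to Vmn2r17, always on the plus strand, and 4 of the copies lay under a CTCF peak.
chr5:109219590-109219619, plus strand, no peak: ctgttTGGCCAGCAGATGTCAGAAGggaag
chr5:109265334-109265363, plus strand, Lone CTCF: ctgttTGGCCAGCAGATGTCAGAAGggaaa
chr5:109295964-109295993, plus strand, Lone CTCF: ctgtgTGGCCAGCAGATGTCAGAAGagagg
chr5:109461778-109461807, plus strand, CAC: atgttTGGCCAGCAGATGTCAGAAGggaag
chr5:109501231-109501260, plus strand, no peak: ctgtgTGGCCAGCAGATGTCAGAAGggagg
chr5:109568734-109568763, plus strand, Lone CTCF: ctctgTGGCCAGCAGATGTCAGAAGggaag

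The second set holds the motif matches at the other CAC sites within 20 kb of a Vmn2r gene, shown because each of these words differs from the rest while the chromosome 5 copies are identical over the motif.
Vmn2r7, chr3:64595017-64595046, minus strand: aactgTGGCCTCTAGATGGTGCTAAgtggc
Vmn2r19, chr6:123290297-123290326, plus strand: ctcaaTCACCAGCAGGTGTCAGGCCttcct
Vmn2r76, chr7:93360050-93360079, minus strand: ttttgAGGCCACTAGGGGGCAGAAGagtac
Vmn2r83, chr10:78965762-78965791, minus strand: ctcaaGTACCAGGAGAGGGCGCTCCtaact

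The third set holds the motif matches at the CAC sites that flank 3 of the larger clusters, shown because their strands give the orientation of the cluster ends. In none of the 3 does the left match lie on the plus strand and the right match on the minus strand.
Vmn2r1 to Vmn2r7, left, chr3:63843817-63843846, plus strand: aggtcCAGCCAGCAGATGGCGCCCGaggag
Vmn2r1 to Vmn2r7, right, chr3:65121999-65122028, plus strand: cggttGCAACACTAGAGGGCGCTAGtccca
Vmn2r8 to Vmn2r17, left, chr5:109187591-109187620, minus strand: ccaccCGGCCCCTAGATGGAGCTATaacat
Vmn2r8 to Vmn2r17, right, chr5:109935936-109935965, plus strand: acttaCTTCCACAAGGTGGCACCCCacacc
Vmn2r19 to Vmn2r27, left, chr6:122955789-122955818, minus strand: ggcccAAGCCACAAGAGGGAGCCCAtgtcc
Vmn2r19 to Vmn2r27, right, chr6:124210745-124210774, minus strand: gcattTGCCCACTAGATGGGGCTGTgctcc

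Few Vmn2r genes had a CTCF or Rad21 peak nearby in liver. A CTCF peak lay within 20 kb of 12 of the 119 genes (10.08%, 95% Wilson interval 5.86 to 16.8), against 82.1% of all protein-coding genes. A Rad21 peak lay within 20 kb of 10 genes (8.40%, 4.63 to 14.8), against 80.8%. A shared peak lay within 20 kb of 8 genes (6.72%, 3.45 to 12.7), against 79.6%. Neither peak was listed within 20 kb of 105 genes (88.2%), against 17.1% of all protein-coding genes. These intervals cover counting error only, and genes of 1 cluster lie in the same region, so they are not independent. No listed peak lay within 20 kb of more than 1 Vmn2r gene. Fewer liver cells bound at a site and weaker binding in each cell cannot be told apart in these bulk samples.

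None of the 119 genes had a peak of either list within 1 kb of an annotated start, and a count of 0 allows a share of up to 2.52%. Over all protein-coding genes, 54.0% had a CTCF peak within that distance, 53.3% a Rad21 peak and 57.1% either. Of the Vmn1r and Olfr genes, the vomeronasal type 1 and the olfactory receptors, 1 of 203 (0.493%) and 7 of 1113 (0.629%) had either. The peak closest to a Vmn2r start was a CAC site 2.12 kb from the start of Vmn2r7. The median distance from a Vmn2r gene to the nearest CTCF peak was 152 kb and to the nearest shared peak 189 kb, while for all protein-coding genes both medians were 0 because the peak lay within the gene.

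Other chemosensory receptor families were described by the same counts. Of 203 Vmn1r genes, the vomeronasal type 1 receptors of the apical layer, 13 had a CTCF peak within 20 kb (6.40%). Of 1113 olfactory receptor genes (Olfr), which serve the main olfactory epithelium, 170 did (15.3%). The intervals of both overlapped that of the Vmn2r genes. Of 15 Taar genes, the olfactory receptors for amines, 10 had a CTCF peak and 11 a Rad21 peak. Of 7 formyl peptide receptor genes (Fpr), some of which are used in vomeronasal neurons, 3 had both. These were Fpr1, Fpr2 and Fpr3, all within 20 kb of the CAC site in an intron of Fpr3. The 4 with neither peak were Fpr-rs genes, with the nearest CTCF peak at 125 to 831 kb. Gene length differed between the lists, with medians of 23.7 kb for Vmn2r, 0.930 kb for Vmn1r, 0.960 kb for Olfr, 1.11 kb for Taar, 1.03 kb for Fpr, 68.4 kb for the other class C receptors, 31.4 kb for the vomeronasal signalling genes and 15.4 kb over all protein-coding genes, and a longer gene has a longer window. The CTCF shares were 66.7% (41.7 to 84.8) for Taar and 42.9% (15.8 to 74.95) for Fpr. The interval for Fpr overlapped that of the Vmn2r genes. No count was matched for gene length, and its part in these shares was not tested.

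**Figure D1:**
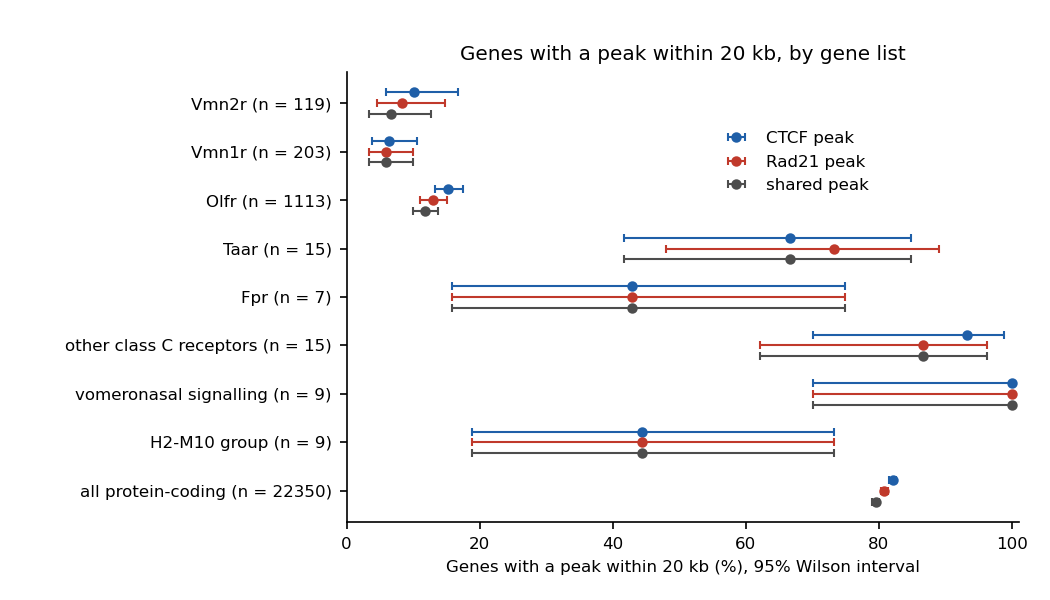
Share of genes with a CTCF peak (blue), a Rad21 peak (red) or a shared peak (grey) within 20 kb, in percent, for each gene list, with 95% Wilson intervals. The Vmn2r genes lie at 6.72% to 10.08%, beside Vmn1r and Olfr, and all protein-coding genes lie at 79.6% to 82.1%.

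The other members of receptor class C and the signalling genes of vomeronasal neurons, both longer than the Vmn2r genes by their medians, were counted in the same way. Of 15 other class C receptor genes, such as the calcium-sensing receptor Casr and the taste receptors Tas1r1 to Tas1r3, 14 had a CTCF peak within 20 kb and 13 a shared peak. These shares were 93.3% (70.2 to 98.8) and 86.7% (62.1 to 96.3), beside 82.1% and 79.6% of all protein-coding genes. All 9 genes of vomeronasal signalling had a shared peak within 20 kb, among them Trpc2, the cation channel of these neurons, and Gnao1, the G protein subunit used by Vmn2r neurons, both with a shared peak inside the gene. The interval for the 9 signalling genes ran from 70.1 to 100%. It and those of the class C receptors covered the shares over all protein-coding genes. Of 9 genes of the H2-M10 group, nonclassical class I genes that are expressed with Vmn2r receptors, 4 had a shared peak within 20 kb and 5 had neither peak.

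The 15 CTCF peaks at Vmn2r genes ranged from weak to strong. Their median fold enrichment over local background was 6.87 (95% interval of the median 4.95 to 14.0), beside 6.05 over the whole CTCF list, and 10 of the 15 lay above that median. By −log10 q the order turned, with a median of 24.8 for these peaks beside 26.7 over the list, and it also turned among peaks with a −log10 q of at least 10, where the ratio of the medians of fold enrichment was 0.785. For the 12 Rad21 peaks the median was 5.52 (3.98 to 9.45), beside 4.93 over the Rad21 list, and 7 of the 12 lay above it. Fold enrichment ran from 3.07 to 27.2 for CTCF and from 3.82 to 27.7 for Rad21. The weakest CTCF peak lay above 10.2% of its list, and the weakest Rad21 peaks above 30.4% of theirs. A −log10 q of at least 10 was reached by 14 of 15 CTCF peaks, beside 72.9% of the CTCF list, and by 7 of 12 Rad21 peaks, beside 64.2% of the Rad21 list.

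**Figure D2:**
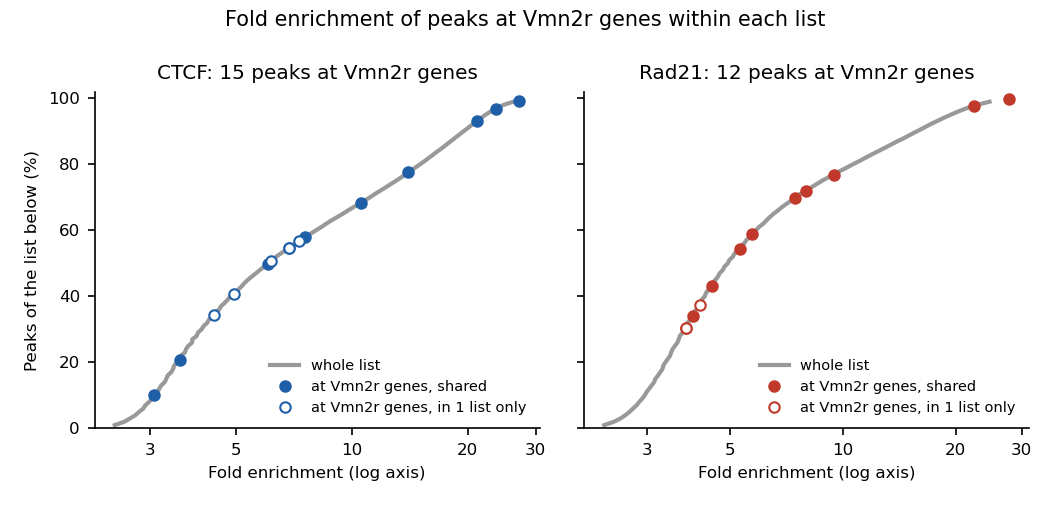
Fold enrichment (log axis) of the peaks at Vmn2r genes against the percentage of the list's peaks with a lower value, for CTCF (left, 15 peaks) and Rad21 (right, 12 peaks). The grey line is the whole list, filled points are shared peaks and open points peaks of 1 list only, and the strongest points of each panel lie at 27.2 (CTCF) and 27.7 (Rad21).

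Of the CTCF peaks, 10 of 15 were shared with Rad21 (66.7%, Wilson interval 41.7 to 84.8), beside 73.7% of the CTCF list, and 5 were Lone CTCF. Of the Rad21 peaks, 10 of 12 were shared with CTCF (83.3%, 55.2 to 95.3), beside 73.6% of the Rad21 list, and 2 were CNC. Both list shares lay within the intervals. A CTCF motif within 100 bp of the summit was found in 8 of 15 CTCF peaks (53.3%, 30.1 to 75.2), beside 44.0% of the CTCF list, and in 5 of 12 Rad21 peaks (41.7%, 19.3 to 68.0), beside 33.4%. The motif counts lean on 1 repeated word, since 4 of the 8 CTCF peaks with a motif carried the copies printed above.

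On chromosome 3, Vmn2r1 to Vmn2r7 (chr3:63885564-64648687) are the C subfamily of these receptors, which vomeronasal neurons express alongside a receptor of another subfamily. Vmn2r7 was the only Vmn2r gene that a peak overlapped. Its gene record runs over 154 kb and also spans the pseudogene Vmn2r-ps11. A CAC site in its intron at chr3:64594790-64595299 had a fold enrichment of 27.2 for CTCF, above 99.4% of the CTCF list, and of 22.3 for Rad21, above 97.7% of the Rad21 list. A second intronic CAC site at chr3:64646163-64646716 had 21.2 for CTCF and 9.45 for Rad21, and no motif match passed the threshold there. The other 6 genes of the cluster had no peak within 20 kb, and their nearest CTCF peaks were 27.8 kb (Vmn2r6) to 161 kb (Vmn2r4) away.

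On chromosome 5, Vmn2r8 to Vmn2r17 (chr5:109226212-109882406) had 5 CTCF peaks within 20 kb of a gene, the most of any cluster by that count, but 1 Rad21 peak. The CAC site between Vmn2r10 and Vmn2r11 (chr5:109461595-109462035) had a fold enrichment of 10.58 for CTCF and of 5.31 for Rad21. The Lone CTCF peaks at the other occupied copies of the word had 7.28 (near Vmn2r9), 6.18 (14.3 kb from Vmn2r9, in a non-coding exon part of Gm10417) and 4.40 (16.2 kb from Vmn2r13). Among the 4 occupied copies, the strongest CTCF peak was thus the one with a listed Rad21 peak. The fifth CTCF peak had 4.95, lay in an intron of Tmed11, a gene of the p24 cargo receptor family, and held no motif match. It ended at chr5:109219568, just short of the first copy of the word, which starts at chr5:109219595. That copy had no peak over it and is counted as unoccupied, although a peak adjoins it.

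The 6 copies on chromosome 5 lay 6.60 to 16.3 kb from the nearest Vmn2r gene, and consecutive copies lay 30.6 to 165.8 kb apart. The same 20 bases occurred nowhere else on the autosomes or X. The match scored 18.2 bits at every copy, so the matrix does not separate occupied from unoccupied copies. All 50-mers that cover the copy were found once in the genome at 4 copies, of which 3 were occupied, and at the other two 93.5% were, of which 1 was occupied.

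On chromosome 6, Vmn2r19 to Vmn2r27 (chr6:123258351-124181802) held 1 CAC site within 20 kb of a gene, 3.54 kb from the end of Vmn2r19 (chr6:123290091-123290536). It had a CTCF fold enrichment of 23.6, above 96.9% of the CTCF list, and the highest Rad21 fold enrichment of the 12 Rad21 peaks, 27.7, above 99.8% of the Rad21 list. A second CAC site inside the cluster, between Vmn2r25 and Vmn2r26 and 77.7 kb from Vmn2r25, had 19.1 for CTCF and 8.13 for Rad21. Vmn2r26, a receptor for peptides that bind class I molecules, had its nearest CTCF peak at 93.4 kb.

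Chromosome 7 holds 7 clusters. Vmn2r29 to Vmn2r36 (chr7:7184038-7855173) had 1 CAC site, in an intron of the chloride transporter gene Clcn4-2 and 15.9 kb from Vmn2r30, with the lowest CTCF fold enrichment of the 15, 3.07, and a Rad21 fold enrichment of 5.73. The 16 genes of Vmn2r37 to Vmn2r52 (chr7:8954257-10761635) had no peak of either list within 20 kb or anywhere between the first and last gene. The nearest CTCF peaks of these 16 were 178 to 1831 kb away. Vmn2r28 and Vmn2r53 to Vmn2r56 had no peak within 20 kb either.

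Vmn2r57 to Vmn2r63 (chr7:48655102-50189159) had 2 CAC sites within 20 kb, both past the 3′ end of Vmn2r57 and near the start of AI987944. Their CTCF fold enrichments were 6.87 and 3.57, their Rad21 fold enrichments 4.48 and 3.98, and neither had a motif match. Vmn2r65 to Vmn2r76 (chr7:92088679-93394711) had 1 CAC site, 13.5 kb from Vmn2r76, with 7.56 for CTCF and 7.46 for Rad21. Its motif match, at 21.8 bits, was the best of all motif sites near Vmn2r genes although its CTCF peak stood above only 57.9% of the list. Vmn2r77 to Vmn2r79 had no peak within 20 kb.

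On chromosome 10, a CAC site 10.62 kb beyond Vmn2r83 had a fold enrichment of 14.0 for CTCF and of 7.96. for Rad21 It was the nearest site to the end of the cluster Vmn2r80 to Vmn2r83. Near Vmn2r84 to Vmn2r87 the only peak within 20 kb was a CNC site 13.4 kb from Vmn2r84, with a Rad21 fold enrichment of 4.15. On chromosome 14, Vmn2r88 and Vmn2r89 had a CNC site at 3.82 and a CAC site with 6.05 for CTCF and 3.82 for Rad21, both in introns of Gm7247. These 3 sites lay outside the span from the first to the last gene of their clusters, as did the Vmn2r83 site.

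On chromosome 17, Vmn2r90 to Vmn2r110 (chr17:17840905-20733223) is the largest cluster, with 21 genes, and 20 of them had no peak of either list within 20 kb. The exception was Vmn2r90, 15.4 kb from a Lone CTCF peak with a fold enrichment of 6.87 (chr17:17886485-17886892). Vmn2r111 to Vmn2r117 (chr17:22684908-23616564) had no peak within 20 kb of its 7 genes. Its member Vmn2r116, the receptor of the male tear peptide ESP1, had its nearest CTCF peak at 136 kb. The single genes Vmn2r118 and Vmn2r120 of this chromosome and Vmn2r121 of the X chromosome had none within 20 kb.

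**Figure D3:**
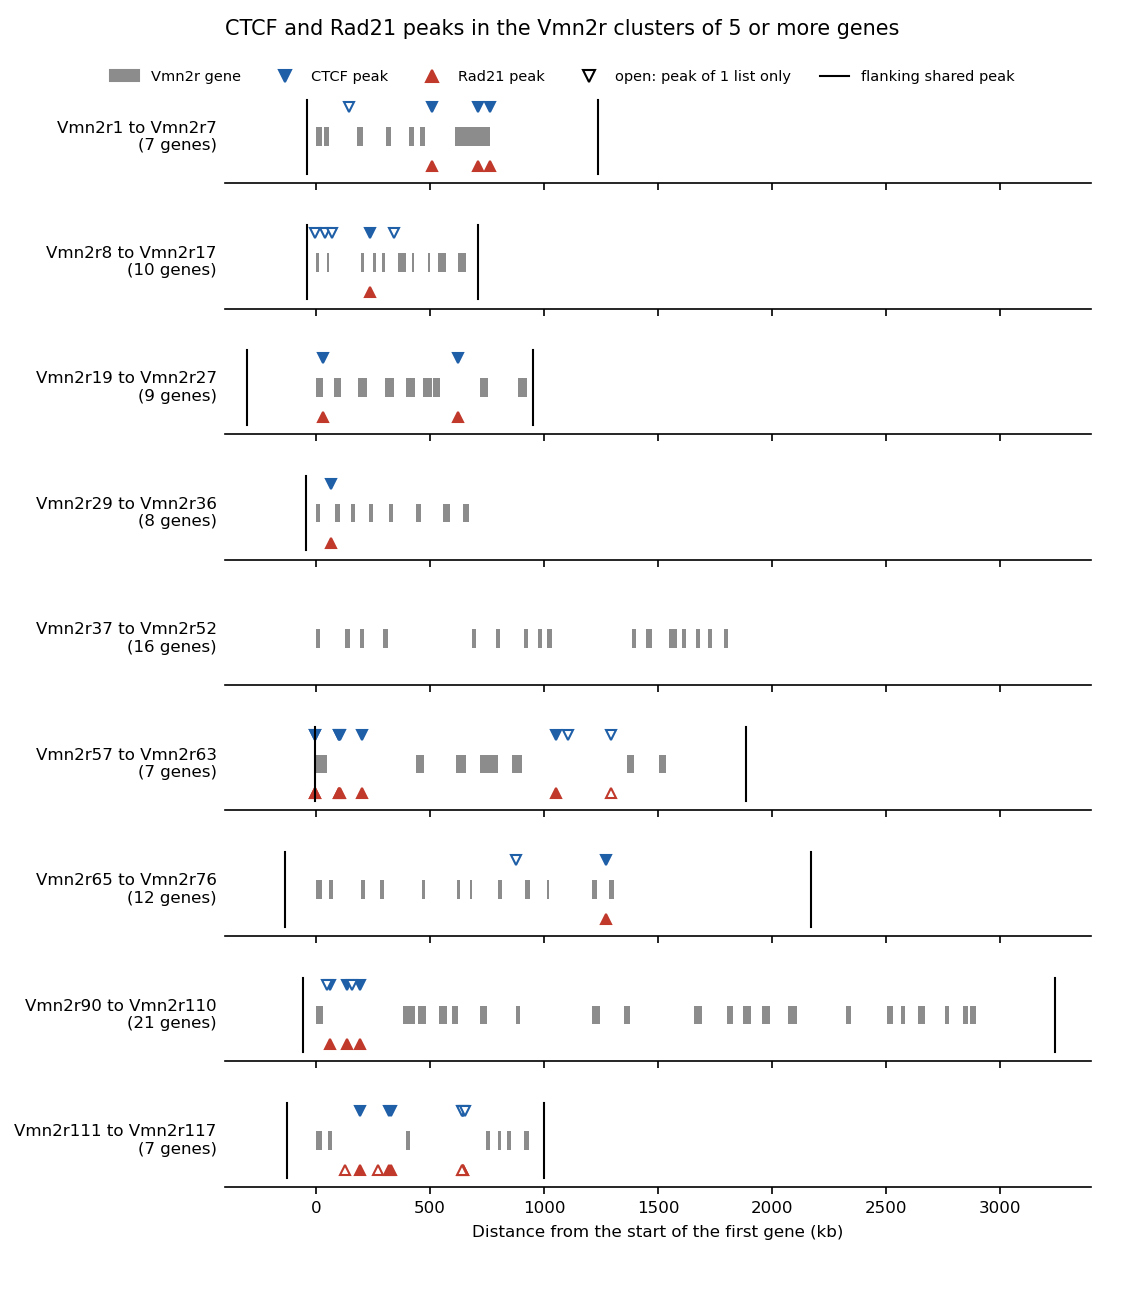
Vmn2r genes (grey boxes), CTCF peaks (blue, above) and Rad21 peaks (red, below) in the 9 clusters of at least 5 genes, by distance in kb from the start of the first gene, with open symbols for peaks of 1 list only and black lines for the nearest shared peak outside each end. Flanking peaks beyond the axis are not drawn, which leaves out 1 of Vmn2r29 to Vmn2r36 and both of Vmn2r37 to Vmn2r52, a cluster that holds no peak at all.

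Most peaks inside the spans of the clusters lay away from the Vmn2r genes. Of 33 CTCF peaks between the first and last gene of a cluster, 23 lay over 20 kb from every Vmn2r gene, and of 25 Rad21 peaks 19 did. Much of the spans lies that far from a gene, since the spans cover 12.5 Mb and the genes with 20 kb 7.41 Mb. Per Mb, the genes with 20 kb held 2.02 CTCF and 1.62 Rad21 peaks, beside 2.64 and 2.0 in the spans. In Vmn2r57 to Vmn2r63 a pair of CAC sites lay within 1 kb of the start of AW146154, and a CAC site with 22.1 for CTCF and 17.8 for Rad21 lay 2.67 kb from the start of 4933421I07Rik. In Vmn2r90 to Vmn2r110 all 3 CAC sites fell near the left end. One was 32.3 kb from Vmn2r90, the next in a coding exon of Ncrna00085 and the last in an intron of Fpr3, with CTCF fold enrichments of 23.1, 20.6 and 19.2. In Vmn2r111 to Vmn2r117 the CAC sites lay near the zinc finger genes Zfp945 and Zfp40 or at chr17:22876391-22876834. In all, 10 of the 19 clusters had no peak inside their span, and 11 no shared peak. The 10 include all 5 single genes, whose spans were only 8.57 to 36.5 kb. The share expected for spans of these lengths was not computed.

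Long stretches at these genes held no listed shared peak. Between consecutive shared peaks the median gap was 16.8 kb over the genome, and 0.51% of gaps, 258 of 50592, were over 1 Mb. The 119 Vmn2r genes lay in 28 gaps, with a median over genes of 899 kb against 44.5 kb over all protein-coding genes. Gaps over 500 kb held 80 Vmn2r genes (67.2%), against 11.3% of all protein-coding genes. They held 176 of 200 Vmn1r genes (88%) and 712 of 1112 Olfr genes (64%) that lay between shared peaks. The 7 gaps over 1 Mb held 58 Vmn2r genes. The longest, 5.76 Mb on chromosome 7 with 23 genes from Vmn2r30 to Vmn2r52, was the third longest gap of the genome, and the next, 4.89 Mb around Vmn2r121 on the X chromosome, was the fifth. Another of 3.05 Mb on chromosome 17 held 20 genes, Vmn2r91 to Vmn2r110. The same gaps can hold other gene families, and the longest Vmn1r gap was also 5.76 Mb.

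Each cluster end was then followed to the nearest shared peak outside it. The 38 ends had 36 distinct flanking CAC sites, at a median distance of 109 kb (4.99 kb to 5152 kb), and 18 of 38 lay within 100 kb. Their median CTCF fold enrichment was 9.58, beside 8.47 for all shared CTCF peaks, and their median Rad21 fold enrichment 7.71, beside 6.15. The flanks of Vmn2r37 to Vmn2r52 were 1706 and 2246 kb away and weak, at 3.07 and 3.71 for CTCF. Both were also a flank or a member of Vmn2r29 to Vmn2r36. By contrast, Vmn2r80 to Vmn2r83 lay between sites at 31.9 and 10.62 kb, with 23.3 and 14.0 for CTCF.

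Counted by cluster side, 27 of the 38 flanking sites were intergenic, 10 lay in introns and 1 in a coding exon. The right flank of Vmn2r1 to Vmn2r7 was in an intron of Kcnab1, which encodes a potassium channel subunit (CTCF 17.4, Rad21 11.8). The right flank of Vmn2r18 was in an intron of Rfc3, a subunit of the replication clamp loader (20.7 and 13.9). The left flank of Vmn2r90 to Vmn2r110 was 21.4 kb from the start of Lnpep, an aminopeptidase gene (25.4 and 24.4). The right flank of that cluster was in a coding exon of Ppp2r1a, the scaffold of protein phosphatase 2A (7.76 and 3.88). The left flank of Vmn2r111 to Vmn2r117, near the zinc finger gene Zfp946, had 26.9 and 15.4, while the right flank had 2.55 and 3.44.

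Of the 38 flanking sides, 23 had a motif match, beside 45.4% of all shared CTCF peaks, and 8 clusters had a match on both sides. In 0 of the 8 did the left match lie on the plus and the right match on the minus strand, the convergent arrangement, and a count of 0 of 8 allows up to 37.5%. The strands pointed away from the cluster in 3, were both plus in 3 and both minus in 2. Of all pairs of consecutive shared peaks over the genome 4.91% were convergent, and of those with a match at both 20.3%. With only peaks of a −log10 q of at least 10, or only peaks of a fold enrichment of at least 5, 1 cluster was convergent.

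**Figure D4:**
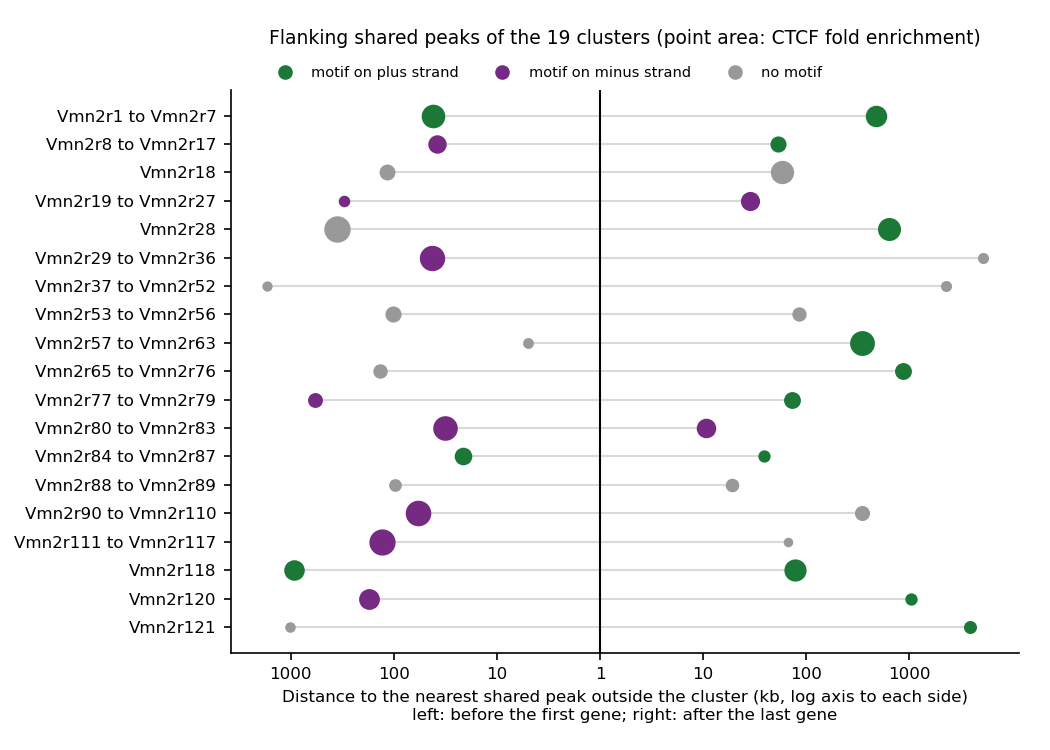
Distance in kb (log axis to each side) from the first and the last gene of each of the 19 clusters to the nearest shared peak outside, with points coloured by the strand of the motif match and sized by CTCF fold enrichment. Distances run from 4.99 kb to 5152 kb, and in no row is a green point (plus strand) on the left paired with a purple point (minus strand) on the right.

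Peak density within the cluster spans was 2.64 CTCF and 2.0 Rad21 peaks per Mb, against 27.1 and 27.2 per Mb over the autosomes. These are 0.0974 and 0.0735 of the autosomal density, and 0.0567 and 0.0323 where only genes under 200 kb apart are joined into a cluster. Both lists rest on reads that mapped to a single place, and the sequence of the clusters is repeated more often than the rest of the genome. Of all 50-mers, 63.4% in the cluster spans were found once in the genome on either strand, against 86.5% over the autosomes. Per Mb of such sequence there were 4.16 CTCF and 3.15 Rad21 peaks, against 31.3 and 31.4. GC content was 38.2% against 41.9%, and its part in the result was not tested.

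Uniqueness differed widely between clusters, from 16% in the windows of Vmn2r29 to Vmn2r36 to 85.9% in that of Vmn2r120. The windows of Vmn2r37 to Vmn2r52, which had no peak, stood at 19.8%, and those of Vmn2r90 to Vmn2r110, with 1 peak for 21 genes, at 85%. Genes were therefore grouped by the share of 50-mers of their own window that were found once. In the group of at least 80%, 4 of 40 Vmn2r genes had a CTCF peak within 20 kb (10%, 3.96 to 23.1), against 89.5% of 19729 protein-coding genes. In the group of 50% to under 80%, 7 of 51 did (13.7%, 6.81 to 25.7), against 39.3% of 1576. In the group under 50%, 1 of 28 did (3.57%, 0.633 to 17.7), against 7.37% of 1045, and there the interval of the Vmn2r genes covered the share of all genes. A Rad21 peak within 20 kb was listed, in the same order of groups, for 4 (10%), 5 (9.80%) and 1 (3.57%) of the Vmn2r genes, against 88.3%, 37.2% and 6.22% of all protein-coding genes. This grouping was chosen after the counts had been seen.

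Motif sites were counted next, to see whether the windows of the Vmn2r genes lack matches or lack peaks at matches. The windows held 115 motif sites, or 15.5 per Mb, against 43.9 per Mb over the autosomes. Of these, 9 lay under a CTCF peak (7.83%, 4.17 to 14.2), against 29.3% of the autosomal sites, so both the density of sites and the share under a peak were lower. These 9 are the 8 matches near peak summits and 1 at the edge of the Vmn2r90 peak, outside the 100 bp around its summit. Occupancy was higher at higher motif scores in both: for sites under 3 bits above the threshold it was 3 of 93 (3.23%) against 15.6%, for 3 to 6 bits above 5 of 20 (25%) against 49.2%, and for 6 bits or more above 1 of 2 against 73.6%. The interval for 3 to 6 bits ran from 11.2 to 46.9%, and 4 of its 5 occupied sites were copies of the 1 repeated word.

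Uniqueness was also counted at the motif sites themselves. Of the 106 sites without a CTCF peak, 47 were covered by no 50-mer found once and 34 only by such 50-mers. Of the 42 sites covered only by 50-mers found once, 8 lay under a CTCF peak (19%, 9.98 to 33.3). Of these 8, 3 were copies of the chromosome 5 word. The 29.3% over the autosomal sites lay within the interval of the 19%, but it was taken without regard to uniqueness and is not a matched share. The strongest match without a peak, at 20.8 bits, lay 8.06 kb from Vmn2r7 and is shown because all 50-mers over it were found once.
Vmn2r7, chr3:64656740-64656769, plus strand, no peak: tttagTGGCCAGAAGAGGGCAACATagtgg

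**Figure D5:**
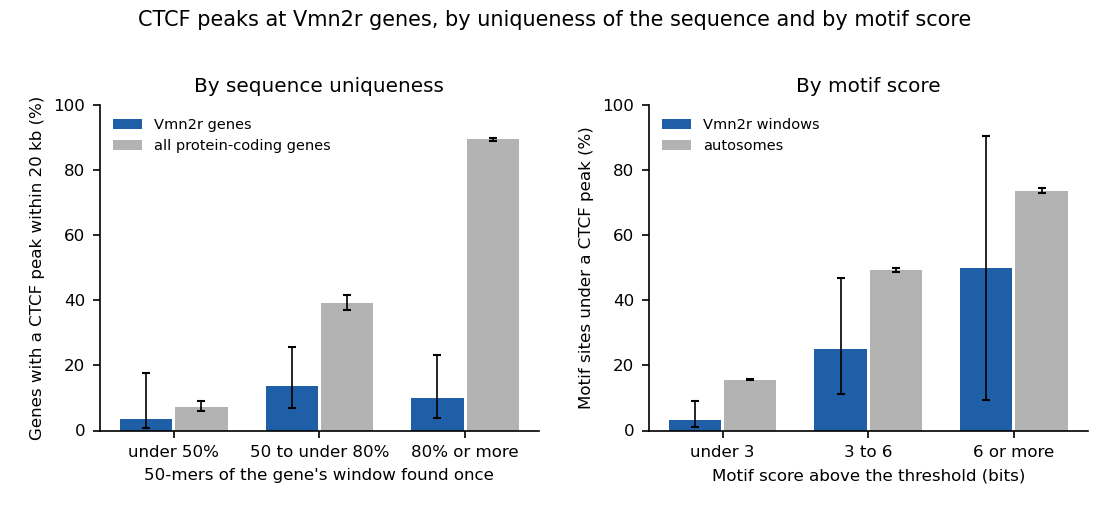
Left, percentage of genes with a CTCF peak within 20 kb, for genes grouped by the share of 50-mers of their window found once, and right, percentage of motif sites under a CTCF peak, by motif score above the threshold in bits. Bars start at 0 and carry 95% Wilson intervals, and in the group of at least 80% the bar of the Vmn2r genes (blue) reaches 10% and that of all protein-coding genes (grey) 89.5%.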

How the data were processed

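CTCF and Rad21 ChIP-seq of female mouse liver was analysed from 2 deposited peak lists. Per the study's methods, Bowtie2 aligned the reads to mm9, and the authors kept reads with 1 place of alignment, called peaks with MACS2, and removed blacklisted regions and peaks of identical reads only. The paper describes merged libraries for its comparison of the sexes. The 2 lists are named as merged, so they were taken as called on the pools of 4 CTCF and 3 Rad21 libraries. The read depth of the pools is not in the lists. For every peak the deposited columns hold a fold enrichment at the summit over local background (a ratio), −log10 p and −log10 q, a score that is 10 times −log10 q, and the summit position. The score and −log10 p were not used. No per-sample column was left unused, since none exists. Fold enrichment was compared only within a list.

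Genes came from GENCODE vM1 of the same build. The members and gene lists were chosen with earlier results of these data known. Peaks overlapping by at least 1 bp were called shared. The motif matrix of 20 bp was learned from the 1000 CTCF peaks of highest fold enrichment on odd-numbered autosomes, over 1 Mb from any Vmn2r gene, and scored within 100 bp of summits. Its threshold was set on 55849 windows 1000 bp from summits of even-numbered autosomes. Uniqueness was the share of 50-mers found once on both strands, read at every 1000 bp for gene windows. Named items were, per cluster, the strongest member peak of each list and the flanking shared peaks, Vmn2r genes that a shared peak overlaps, and the first and last gene of clusters of at least 5. Other peaks, the receptors Vmn2r26 and Vmn2r116, and repeated motif words were named after their values were seen. Overlap, uniqueness and motif steps were tested on simulated data. Python 3.11.15, numpy 2.4.6, pandas 2.3.3, scipy 1.17.1, pysam 0.24.0, samtools 1.23.1 and matplotlib 3.10.9 were used. Each list was called on pooled libraries, so there was no replicate error and no test. The value of 1 gene of the comparison lists is not reported here.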

Additional observations from a re-analysis of the deposited data

How the results depend on the processing

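No paired analysis was possible because the libraries of each antibody were pooled before peaks were called, and for the same reason no library could be left out. Over 16 alternative settings, 60 of 86 values stayed within 1.5 times the count or within the interval of the reported value. With peaks of −log10 q of at least 10, Rad21 peaks at Vmn2r genes numbered 7 and genes with one 6, 100% of them were shared and 71.4% had a motif, the ratio of the CTCF member median to the list median went from 1.14 to 0.785, and 1 cluster was convergent. With fold enrichment of at least 5, the Rad21 values were 7 peaks, 6 genes and 71.4% with a motif, and 1 cluster was convergent. Without the extension of 20 kb, each list had 2 peaks at 1 gene, 100% of them shared, with ratios to the list median of 4.0 for CTCF and 3.22 for Rad21. With 50 kb, there were 35 CTCF peaks at 27 genes and 25 Rad21 peaks at 22 genes. Within 5 kb of a start, 1 gene had a peak. With clusters joined at under 200 kb, the density relative to the autosomes went from 0.0974 to 0.0567 for CTCF and from 0.0735 to 0.0323 for Rad21. At the motif threshold reached by 5% of windows, 75% of Rad21 peaks had a motif. A region without a listed peak can still be bound below the calling threshold, and uniquely mapped reads cover repeated sequence less than the rest.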

Other observations

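The 115 motif sites near Vmn2r genes held 66 different words of 20 bases, and 11 words that occurred at least 3 times made up 56 of the sites. A CTCF peak lay over a copy of 1 of the 11 words, the chromosome 5 word described above. The words were listed after their values had been seen.

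The word with the most sites near Vmn2r genes, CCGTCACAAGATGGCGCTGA, had 12 copies there, 6 of them inside Vmn2r genes, and none lay under a CTCF peak. At 9 of the 12 copies none of the covering 50-mers was found once, and at no copy were all of them. Over the autosomes and X it had 1296 copies, of which 6 lay under a CTCF peak (0.463%). The word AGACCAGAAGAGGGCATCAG lay in introns of Vmn2r10, Vmn2r14, Vmn2r15, Vmn2r62 and Vmn2r63, and none of these 5 copies lay under a CTCF peak, while 86 of its 291 copies over the autosomes and X did (29.6%). At 2 of the 5 copies all covering 50-mers were found once, and at 2 none was. ATGCCAGTAGAGGTCACCCC had 6 copies among Vmn2r29 to Vmn2r52, 3 on each strand and 7.5 to 10.5 kb from the nearest Vmn2r gene, and none of the 50-mers over them was found once. It had 11 copies over the autosomes and X, with no CTCF peak over any of them.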
